A study of Homo sapiens with 2 samples.

Results

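The genes SYN1, SNAP25, SYT1, SYT11, STX1A, VAMP2, DCX, STMN2 and MLLT11 were followed in single WaGa cells with and without the histone deacetylase (HDAC) inhibitor domatinostat. They were chosen by name, as genes of vesicle fusion and neuronal maturation of which several are known to respond to HDAC inhibition, and all 9 were found among the 32742 genes of the deposited table. WaGa, an established cell line that grows in suspension, comes from a human Merkel cell carcinoma, a neuroendocrine skin cancer. Domatinostat inhibits class I HDACs, enzymes that remove acetyl groups from histones. Cells treated with domatinostat, which had been dissolved in DMSO, were set against cells that received no treatment, with 1 library each. Dose and duration of the treatment are not in the labels, which also do not say whether the untreated cells received DMSO. Both libraries came from 1 cell line, so they describe that line and not Merkel cell carcinoma in general. Since each condition had a single library, no condition effect was tested or checked by replicates, and all intervals are 95% exact intervals that cover counting error only.

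Neurons and neuroendocrine cells release transmitters and hormones by fusing vesicles with the plasma membrane. A SNARE complex pulls the membranes together: syntaxin-1A (STX1A) and SNAP25 stand on the plasma membrane and synaptobrevin-2 (VAMP2) on the vesicle. Synaptotagmin-1 (SYT1) senses the calcium that sets fusion off, whereas synaptotagmin-11 (SYT11) does not bind calcium in the same way. Synapsin-1 (SYN1) coats synaptic vesicles and tethers them in a reserve pool. Doublecortin (DCX) stabilises microtubules in migrating young neurons, stathmin-2 (STMN2) binds tubulin in growing axons, and MLLT11 is a small protein expressed in developing neurons. Many neuronal genes carry an RE1 element that is bound by the repressor REST, which recruits corepressors containing HDAC1 and HDAC2. SYN1 is a classical gene of that kind.

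The promoters of SYN1, SYT11, DCX, SYT1 and STX1A are shown because these genes include the measured members with the lowest ratios and the one with the highest and, with STX1A, 1 gene near a ratio of 1 for contrast. RefSeq promoters (build GRCh38.p14, 250 bases before to 50 bases after each start) were matched for 7 of the 9 genes. The expression values were made on another build, hg19, so the coordinates belong to the sequences only. Capitals mark the left part CAGCACC and the right part GGACAG of the RE1 element and the GC box GGGCGG, each searched on both strands, and every sequence runs 5′ to 3′ on its gene's strand.
SYN1: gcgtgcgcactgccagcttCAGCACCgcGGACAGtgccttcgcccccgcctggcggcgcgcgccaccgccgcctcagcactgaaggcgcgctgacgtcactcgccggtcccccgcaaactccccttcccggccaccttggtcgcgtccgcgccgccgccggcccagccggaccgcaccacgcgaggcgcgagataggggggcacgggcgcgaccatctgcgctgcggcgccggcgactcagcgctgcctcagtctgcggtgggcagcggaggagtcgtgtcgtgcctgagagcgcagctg
SYT11: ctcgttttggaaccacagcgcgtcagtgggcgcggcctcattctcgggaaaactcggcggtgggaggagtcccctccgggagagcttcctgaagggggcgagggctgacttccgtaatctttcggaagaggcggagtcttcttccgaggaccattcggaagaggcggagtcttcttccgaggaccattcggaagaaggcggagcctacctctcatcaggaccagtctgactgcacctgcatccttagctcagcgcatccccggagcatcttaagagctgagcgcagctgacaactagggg
DCX: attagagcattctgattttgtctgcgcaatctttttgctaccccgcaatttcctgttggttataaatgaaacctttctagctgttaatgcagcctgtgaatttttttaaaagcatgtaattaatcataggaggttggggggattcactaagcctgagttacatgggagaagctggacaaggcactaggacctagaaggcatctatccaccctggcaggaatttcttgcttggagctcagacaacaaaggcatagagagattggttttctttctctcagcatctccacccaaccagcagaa
SYT1: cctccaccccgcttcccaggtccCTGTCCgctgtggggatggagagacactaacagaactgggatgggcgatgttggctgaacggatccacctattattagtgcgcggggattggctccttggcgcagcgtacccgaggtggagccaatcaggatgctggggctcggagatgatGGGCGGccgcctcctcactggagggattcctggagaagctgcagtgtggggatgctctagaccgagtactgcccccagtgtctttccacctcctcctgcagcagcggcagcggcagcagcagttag
STX1A: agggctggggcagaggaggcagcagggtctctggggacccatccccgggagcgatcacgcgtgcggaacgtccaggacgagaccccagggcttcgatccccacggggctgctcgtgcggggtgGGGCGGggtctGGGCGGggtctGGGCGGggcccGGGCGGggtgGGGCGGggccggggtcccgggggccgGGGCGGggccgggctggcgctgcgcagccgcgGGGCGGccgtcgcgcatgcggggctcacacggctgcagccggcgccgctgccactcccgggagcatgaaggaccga
These windows lie at chrX:47619808-47620107 (minus strand) for SYN1, chr1:155859317-155859616 (plus strand) for SYT11, chrX:111412143-111412442 (minus strand) for DCX, chr12:78864524-78864823 (plus strand) for SYT1 and chr7:73719620-73719919 (minus strand) for STX1A. For DCX the first of 3 RefSeq promoters is shown.

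The SYN1 window held both RE1 parts in the same orientation, 2 bases apart, with CAGCACC at position -231 and GGACAG at position -222 from the start. Such a pair at that spacing was found in 18 of 35116 promoters (0.0513%), in 16 genes, whereas CAGCACC anywhere in the window occurred in 7.75% and GGACAG in 20.5% of them. SYT1 held GGACAG on the opposite strand (printed as CTGTCC) at -227 and 1 GC box at -76. The STX1A window held 7 GC boxes and no RE1 part. MLLT11 held CAGCACC at -177 and 2 GC boxes, and the 2 VAMP2 windows held 5 and 4 GC boxes. GC boxes occurred in 45.0% of all promoters. None of the capitalised motifs was found in the SYT11 window or in any of the 3 DCX windows. GC content was 75.3% for SYN1, 79.3% for STX1A, 62% for SYT1, 60% for SYT11 and 43% for the DCX window shown, against a median of 58.7% over all promoters. A match to these letters is a description of the sequence and not a bound site, and the absence of a match says only that the letters are not in that window.

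The library labelled treated held 6679 cells and 60160108 unique molecular identifiers (UMIs, 1 per captured transcript) against 4137 cells and 45562976 UMIs in the library labelled untreated. The median cell had 8578 UMIs in the library labelled treated and 11125 in the library labelled untreated, and 48 cell barcodes occurred in both. Cells were tied to a library by the treatment word in their name alone. Most of the listed genes known to be induced by HDAC inhibitors were not higher in the library labelled treated. Of 16 listed, 10 had at least 100 UMIs over both libraries. Of these, 8 had a ratio (labelled treated over labelled untreated) below 1 and 2 had one above 1. The 2 above 1 were TUBB2B at 1.14 (1.12 to 1.16) and TXNIP at 1.04 (0.930 to 1.17). The median log2 ratio of the 10 was -0.36, against -0.01 over all measured genes. Among these 10 genes 0 had a ratio of 1.5 or more, and 2 were lower by that fold. Of all measured genes 3.17% were higher and 12.2% lower. The 2 lower genes were CDKN1A, a cell cycle inhibitor, and the metallothionein MT2A, the latter at a ratio of 0.635. CDKN1A stood at 39.4 CPM (UMIs per 1000000 UMIs of the library) in the library labelled treated and 97.9 CPM in the library labelled untreated. The libraries are therefore named by their labels throughout, and every direction given here rests on those labels. Merkel cell and neuroendocrine markers were present in both, with 11 of 12 measured and summed levels of 2282 CPM in the library labelled treated and 1912 CPM in the library labelled untreated. CHGA made up 1221 CPM labelled treated and 886 CPM labelled untreated of these sums. Of the 11 measured, 7 had a ratio above 1 and 4 below 1. The only 1 past 1.5-fold was SOX2, higher in the library labelled treated at a ratio of 1.57 (1.51 to 1.64).

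A gene was called measured with at least 100 UMIs over both libraries, which 8 of the 9 genes reached and STMN2 did not. Of these 8, 0 were higher by 1.5-fold or more in the library labelled treated, where 3.17% of all 12812 measured genes were, and 3 were lower by that fold, where 12.2% were. The 3 were SYN1, DCX and SYT11. All 3 averaged under 10 CPM, and in that range 5.15% of genes were higher and 23.4% lower by 1.5-fold or more. The members SNAP25, SYT1 and STX1A lay between 10 and 100 CPM, where 1.97% of genes were higher and 5.15% lower by that fold. VAMP2 and MLLT11 lay above 100 CPM, where the shares were 1.17% higher and 2.07% lower. None of these 5 passed the fold either way. With a pseudocount of 0.1 per 10000, which shrinks the ratios of low genes, 0 of the 8 passed it, and SYN1 had a log2 ratio of -0.57. The median log2 ratio of the 8 genes was -0.09, against -0.01 over all measured genes.

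**Figure D1:**
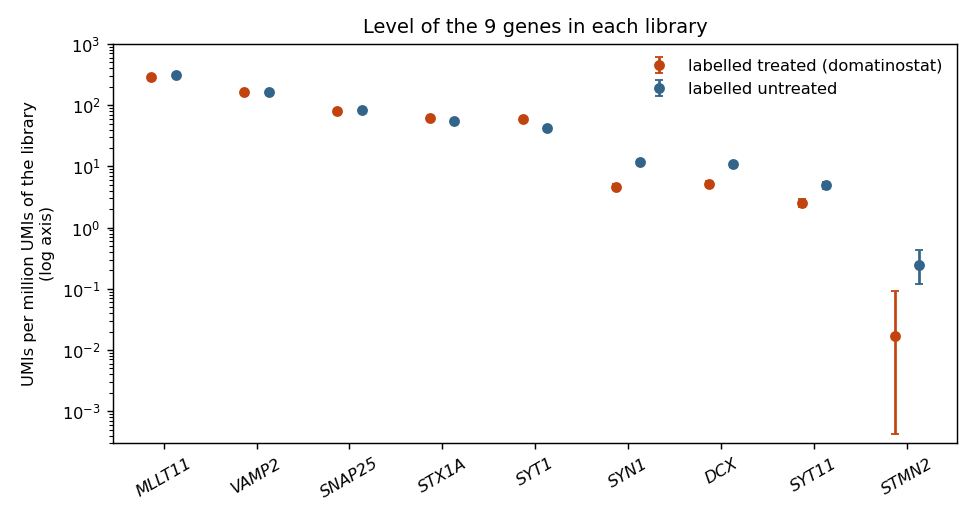
Level of each of the 9 genes in CPM (log axis) in the library labelled treated (left point of each pair) and the library labelled untreated (right point), with 95% exact Poisson intervals. The points of MLLT11, VAMP2, SNAP25 and STX1A lie close together, SYT1 is higher in the library labelled treated (58.8 against 42.7 CPM), and SYN1, DCX and SYT11 are lower in it.

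The SNARE proteins differed little between the libraries. STX1A stood at 60.7 CPM in the library labelled treated and 55.9 CPM in the library labelled untreated, from 3652 UMIs labelled treated and 2546 labelled untreated, a ratio of 1.09 (1.03 to 1.14). SNAP25 stood at 79.7 CPM in the library labelled treated and 83.0 CPM in the library labelled untreated, a ratio of 0.960 (0.920 to 1.00). VAMP2 stood at 165.5 CPM in the library labelled treated and 163.4 CPM in the library labelled untreated, a ratio of 1.01 (0.982 to 1.04). The interval of STX1A excluded 1, that of VAMP2 included it, and that of SNAP25 had its upper bound at 1.00. In the GENCODE annotation SNAP25 shares its locus with the antisense gene SNAP25-AS1, which had 42 UMIs in the library labelled treated and 29 in the library labelled untreated. The sources used here do not say whether the counting used strand.

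The calcium sensor SYT1 was the member with the highest ratio. It stood at 58.8 CPM (56.9 to 60.8) in the library labelled treated, from 3540 UMIs, and at 42.7 CPM (40.8 to 44.7) in the library labelled untreated, from 1946 UMIs. The ratio was 1.38 (1.30 to 1.46), a log2 ratio of 0.46, which lay at percentile 93.9 of all measured genes and short of 1.5-fold. The related SYT11 went the other way, at 2.54 CPM (2.16 to 2.98) in the library labelled treated and 4.94 CPM (4.31 to 5.63) in the library labelled untreated. Its ratio of 0.515 (0.417 to 0.635) rested on 153 UMIs in the library labelled treated and 225 in the library labelled untreated.

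SYN1, the vesicle tether, stood at 4.59 CPM (4.06 to 5.16) in the library labelled treated and 11.7 CPM (10.7 to 12.7) in the library labelled untreated, from 276 UMIs labelled treated and 533 labelled untreated. The ratio of 0.392 (0.338 to 0.454) was the lowest of the measured members, at percentile 3.41 of all measured genes. In the library labelled treated, 4 cells held more than 1 SYN1 UMI (3 cells with 2 and 1 cell with 3), against 44 cells in the library labelled untreated (42 with 2 and 2 with 3). The SYN1 locus overlaps ARAF and TIMP1 on the opposite strand. ARAF had 747 UMIs in the library labelled treated and 478 in the library labelled untreated. TIMP1 had 11 UMIs in the library labelled treated and 13 in the library labelled untreated. Without strand, reads of genes that overlap on opposite strands cannot be told apart. The annotation also has AL009172.2 overlapping SYN1 and AC129492.3 overlapping VAMP2 on the same strand, where strand would not separate reads. On the opposite strand, BUD23 overlaps STX1A, and AC090709.1 and AC027288.3 overlap SYT1. The deposited table had no gene under any of these names, so their UMIs could not be read.

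Among the maturation genes, DCX was lower in the library labelled treated and MLLT11 differed little. DCX stood at 5.10 CPM (4.55 to 5.71) in the library labelled treated and 10.7 CPM (9.80 to 11.7) in the library labelled untreated, from 307 UMIs labelled treated and 489 labelled untreated, a ratio of 0.475 (0.411 to 0.550). MLLT11 stood at 287.0 CPM in the library labelled treated and 311.9 CPM in the library labelled untreated, a ratio of 0.920 (0.900 to 0.941). It overlaps CDC42SE1 on the opposite strand, which had 1140 UMIs in the library labelled treated and 705 in the library labelled untreated. STMN2 was nearly absent, with 1 UMI in the library labelled treated and 11 UMIs in 10 cells of the library labelled untreated. Its ratio of 0.0689 had a counting interval of 0.00160 to 0.474, and its level was 0.0166 CPM in the library labelled treated and 0.241 CPM in the library labelled untreated.

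**Figure D2:**
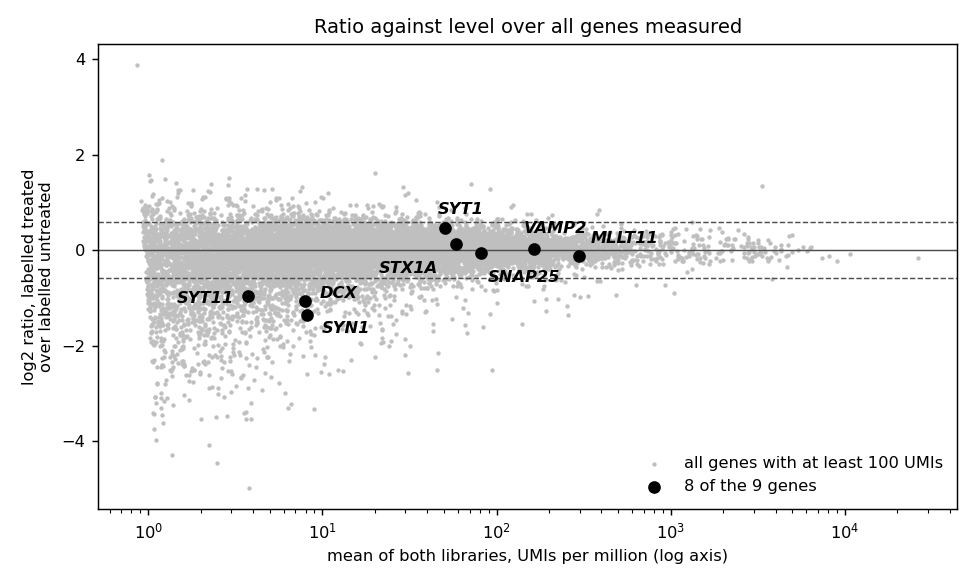
Log2 ratio of the library labelled treated over the library labelled untreated (vertical axis) against the mean level of both libraries in CPM (log axis), for all genes with at least 100 UMIs over both libraries (grey) and 8 of the 9 genes (black). Dashed lines mark 1.5-fold, and genes without a UMI in the library labelled untreated are not drawn. SYN1 (-1.35), DCX (-1.07) and SYT11 (-0.96) lie below the lower line at low levels, where the grey cloud also reaches down, and the other 5 lie between the lines.

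The share of cells with a UMI was compared after each cell was thinned to 4351 UMIs, which kept 6012 cells of the library labelled treated and 3892 of the library labelled untreated. SYN1 was found in 2.13% (1.78 to 2.53) of the cells labelled treated and 5.22% (4.54 to 5.96) of those labelled untreated (unthinned, 4.06% labelled treated and 11.8% labelled untreated). DCX was found in 2.06% (1.72 to 2.45) of the cells labelled treated and 4.86% (4.20 to 5.58) of those labelled untreated (unthinned, 4.24% labelled treated and 10.6% labelled untreated). SYT1 was found in 22.3% (21.2 to 23.3) of the cells labelled treated and 15.9% (14.7 to 17.0) of those labelled untreated (unthinned, 38.4% labelled treated and 34.3% labelled untreated). These 3 genes kept the direction of their levels. SYT11 was found in 1.35% (1.07 to 1.67) of the cells labelled treated and 1.95% (1.54 to 2.44) of those labelled untreated (unthinned, 2.25% labelled treated and 5.12% labelled untreated). These SYT11 intervals overlap. With deeper cells thinned to 8578 UMIs they did not, at 1.89% (1.45 to 2.41) of cells labelled treated and 3.83% (3.16 to 4.60) of those labelled untreated. In cells thinned to 4351 UMIs the SYT11 ratio was 0.672 (0.486 to 0.930), short of 1.5-fold, from 81 UMIs in the library labelled treated and 78 in the library labelled untreated.

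MLLT11, VAMP2, SNAP25 and STX1A differed by less than 3 percentage points between the libraries in cells thinned to 4351 UMIs. MLLT11 was found in 69.2% of the cells labelled treated and 70.2% of those labelled untreated (unthinned, 86.9% labelled treated and 90.5% labelled untreated). VAMP2 was found in 51.9% of the cells labelled treated and 49.6% of those labelled untreated (unthinned, 73.9% labelled treated and 78.2% labelled untreated). SNAP25 was found in 29.0% of the cells labelled treated and 29.9% of those labelled untreated (unthinned, 47.9% labelled treated and 54.9% labelled untreated). STX1A was found in 22.7% of the cells labelled treated and 21.2% of those labelled untreated (unthinned, 40.0% labelled treated and 43.6% labelled untreated). With cells thinned to 8578 UMIs, STX1A was found in 41.9% (40.2 to 43.6) of the cells labelled treated and 36.9% (35.2 to 38.7) of those labelled untreated. For VAMP2 and STX1A the unthinned shares run against the CPM, so no order is read from them. STMN2 was found in 0.0166% of the thinned cells labelled treated and 0.103% of those labelled untreated (unthinned, 0.0150% labelled treated and 0.242% labelled untreated). No cell type lacking these genes was present in this single cell line, so the share that free RNA alone would give was not measured.

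**Figure D3:**
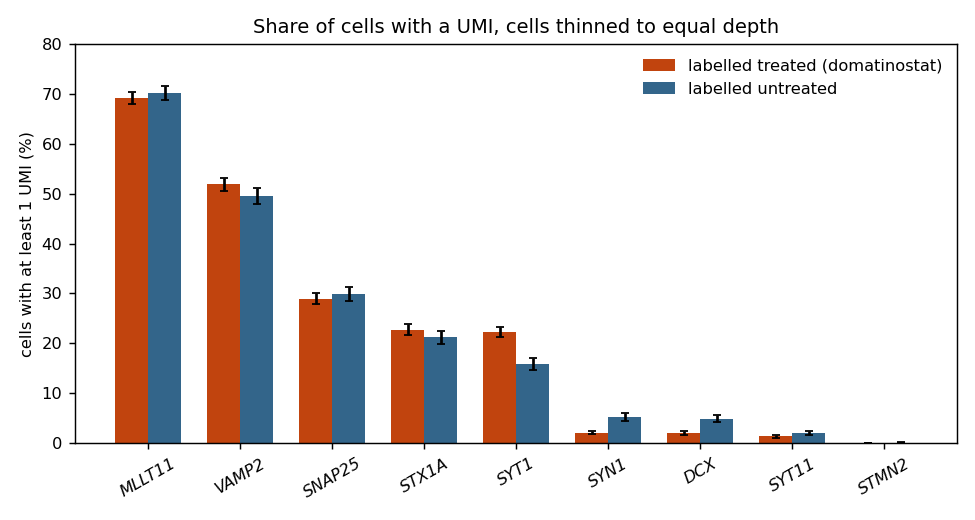
Percent of cells with at least 1 UMI of each gene after thinning to equal depth, in the library labelled treated (left bar) and the library labelled untreated (right bar), with 95% exact binomial intervals. MLLT11 and VAMP2 are found in about as many cells of either library, SYT1 in 22.3% against 15.9%, and SYN1 in 2.13% against 5.22%.

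The library labelled treated was shallower per cell, and the low genes were therefore also read within depth classes. In cells split by UMI number into 3 classes of equal size within each library, from shallow to deep, SYN1 stood at 3.91, 4.54 and 4.88 CPM in the library labelled treated and at 11.6, 11.7 and 11.7 CPM in the library labelled untreated. DCX stood at 4.34, 4.70 and 5.66 CPM in the library labelled treated and at 12.4, 9.53 and 10.9 CPM in the library labelled untreated. SYT11 stood at 3.56, 1.83 and 2.61 CPM in the library labelled treated and at 7.17, 4.27 and 4.51 CPM in the library labelled untreated. All 3 genes were lower in the library labelled treated in every depth class. SYT1 stood at 58.7, 58.4 and 59.2 CPM in the library labelled treated and at 45.5, 35.4 and 46.7 CPM in the library labelled untreated. Among cells of 7000 to 12000 UMIs only, the ratio was 0.414 for SYN1, 0.471 for DCX, 0.359 for SYT11 and 1.49 for SYT1.

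Cells were assigned to cell cycle phases from S and G2/M gene lists, and the mix of phases differed between the libraries. G2/M calls took 44.7% of thinned cells labelled treated and 33.2% of those labelled untreated. S calls took 49.3% of cells labelled treated and 56.3% of those labelled untreated, and G1 calls took 6.09% of cells labelled treated and 10.5% of those labelled untreated. With each library scored alone, G1 calls took 13.1% of cells in both. The calls rest on genes that themselves differed between the libraries (the median log2 ratio of the G2/M list was 0.30), and their part in the results below was not tested. Levels by phase were taken from all UMIs of the cells called. SYN1, DCX and SYT11 were lower in the library labelled treated in all 3 phases. The SYN1 ratio was 0.285 in G1, from 10 UMIs labelled treated and 48 labelled untreated, 0.450 in S and 0.352 in G2/M. With phases called on unthinned cells the SYN1 ratio in G1 was 0.105, from 4 UMIs labelled treated and 47 labelled untreated. The DCX ratio was 0.378 in G1, 0.607 in S and 0.397 in G2/M. SYT11 had ratios of 0.273 in G1, 0.504 in S and 0.603 in G2/M, with 7 UMIs in G1 cells labelled treated.

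SYT1 and MLLT11 had ratios that varied with the phase. SYT1 stood at 54.8 CPM in S cells labelled treated and 34.0 CPM in S cells labelled untreated, a ratio of 1.61 (1.48 to 1.76). In G2/M cells it stood at 61.4 CPM in the library labelled treated and 54.5 CPM in the library labelled untreated, a ratio of 1.13 (1.04 to 1.22), and in G1 the ratio was 1.49 (1.20 to 1.86). The S and G2/M intervals of SYT1 did not overlap. MLLT11 stood at 279 CPM in G2/M cells labelled treated and 358 CPM in G2/M cells labelled untreated, a ratio of 0.780 (0.754 to 0.806), whereas its ratio was 1.04 (1.01 to 1.07) in S and 1.09 (0.998 to 1.19) in G1. STX1A stood at 54.9 CPM in G2/M cells labelled treated and 43.5 CPM in G2/M cells labelled untreated, a ratio of 1.26 (1.16 to 1.38), and its ratio was 1.06 (0.990 to 1.14) in S and 0.950 (0.758 to 1.19) in G1. The G1 value of STX1A depended on the calls: it was 1.01 (0.850 to 1.19) with each library scored alone and 1.25 (0.983 to 1.58) with phases called on unthinned cells. SNAP25 and VAMP2 stayed between 0.897 and 1.10 in the 3 phases. Scoring each library alone gave SYT1 a ratio of 1.58 in S and 1.13 in G2/M, MLLT11 0.776 in G2/M, and STX1A 1.28 in G2/M. With phases called on unthinned cells SYT1 had a ratio of 1.64 in S, 1.13 in G2/M and 1.24 (1.00 to 1.55) in G1, and MLLT11 one of 0.774 in G2/M.

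**Figure D4:**
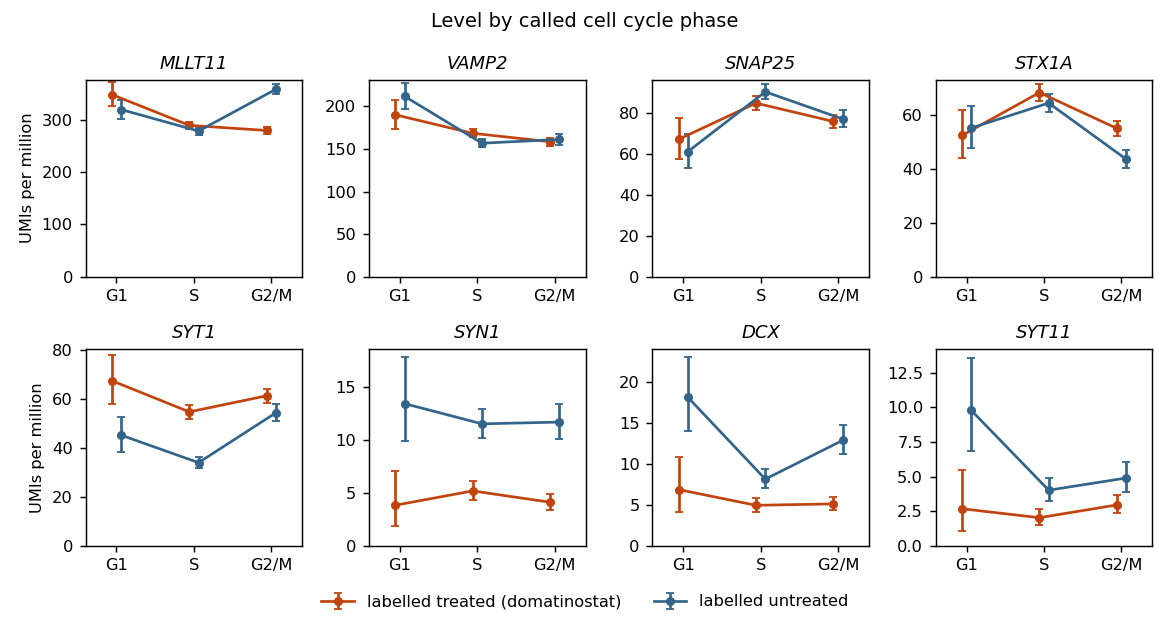
Level in CPM of 8 of the 9 genes in cells called G1, S or G2/M, for the library labelled treated (orange, drawn to the left) and the library labelled untreated (blue), with 95% exact Poisson intervals. The MLLT11 lines part most in G2/M (279 against 358 CPM), the SYT1 lines are closest in G2/M, and the SYN1, DCX and SYT11 points of the library labelled treated lie below those of the other library in all 3 phases.

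Across the cells of a library the genes hardly varied together. Over 28 pairs of the 8 measured members, Pearson's r of log values in thinned cells ran between -0.0269 and 0.0279 in the library labelled treated and between -0.0586 and 0.0439 in the library labelled untreated. The variance over the mean of UMIs per thinned cell, which is 1 for counting error alone, was 0.987 to 1.16 in the library labelled treated and 0.995 to 1.23 in the library labelled untreated, highest for MLLT11 in both. For SYN1, DCX and SYT11, with few UMIs per cell, the measure is close to 1 by construction. The genes most like each member, with the lower of both libraries' r taken, were equally weak, with r between 0.0299 and 0.115 over 27 gene pairs. SYT1 was most like CCNB1 (r = 0.0602 in the library labelled treated and 0.0848 in the library labelled untreated), PLK1 and TUBA1A, of which CCNB1 and PLK1 act in mitosis. MLLT11 was most like RPL10, HNRNPC and AVIL. In unthinned cells r reached 0.470, where all points share the depth of their cell. These are descriptions over cells of 1 library each, and correlations of this size in sparse counts carry no finding.

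The other genes of the fusion pathway were read from lists of genes, against 3.17% of all measured genes higher and 12.2% lower by 1.5-fold or more, and 23.4% lower among those under 10 CPM. Of 37 measured SNARE and fusion genes of 39, 1 was higher by 1.5-fold or more in the library labelled treated and 7 were lower by that fold, with a median log2 ratio of -0.08. The higher one was STXBP5 (tomosyn), which binds syntaxin and holds back fusion, at 2.88 CPM in the library labelled treated and 1.67 CPM in the library labelled untreated, a ratio of 1.72 (1.31 to 2.29). The lowest was STXBP6 (amisyn), with 16 UMIs in the library labelled treated and 115 in the library labelled untreated, a ratio of 0.105. Complexin-1 (CPLX1), which binds the assembled SNARE complex, had a ratio of 1.18. SNAP23, the paralog of SNAP25, had a ratio of 1.19.

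Among 12 measured synaptotagmins of 19, 0 were higher and 4 lower by 1.5-fold or more, the median log2 ratio being -0.20. With a minimum of 500 UMIs that median was 0.09. SYT9 had a ratio of 0.416 and SYT4 one of 0.843, whereas the extended synaptotagmin ESYT1, which tethers the endoplasmic reticulum to the plasma membrane, had 1.37. Of 34 measured vesicle membrane and trafficking genes of 40, 0 were higher and 10 were lower by that fold, with a median of -0.13. SYN3, the paralog of SYN1, had 78 UMIs in the library labelled treated and 119 in the library labelled untreated, a ratio of 0.496. The vesicle protein synaptophysin (SYP) had 48.7 CPM in the library labelled treated and 46.1 CPM in the library labelled untreated, and the vesicle GTPase RAB3A had 79.3 CPM labelled treated and 68.1 CPM labelled untreated. Of 23 measured active zone genes of 29, 0 were higher and 3 lower, with a median of 0.15. The calcium channel subunit CACNA1A had the highest ratio there by its lower bound (1.26), at 60.4 CPM in the library labelled treated and 45.4 CPM in the library labelled untreated, and NRXN2 the lowest, with a ratio of 0.397.

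The neuronal cytoskeleton and maturation list, which holds DCX, STMN2 and MLLT11, had 34 measured genes of 43. Of these 0 were higher and 4 lower by 1.5-fold or more, where 3.17% of all measured genes were higher and 12.2% lower. The median log2 ratio was -0.20. In all, 25 of the 34 lay below a ratio of 1, where the median log2 ratio over all measured genes was -0.01. The list's median was -0.07 in cells of 7000 to 12000 UMIs and -0.11 with a minimum of 500 UMIs. By phase it was -0.07 in cells called G1, -0.03 in S and -0.25 in G2/M. The highest ratios by their lower bounds were those of DPYSL3, at 1.21 (1.15 to 1.28), and TUBB2B, at 1.14 (1.12 to 1.16). CEND1, which drives neuronal precursors out of the cell cycle, had 24 UMIs in the library labelled treated and 206 in the library labelled untreated, a ratio of 0.0882. BASP1, a growth cone protein, had a ratio of 0.173. The stathmins other than STMN2 differed less: STMN1 stood at 3332 CPM in the library labelled treated and 3877 CPM in the library labelled untreated, and STMN3 at 92.7 CPM labelled treated and 95.4 CPM labelled untreated. STMN4 and the neuronal tubulin TUBB3 had 0 UMIs in both libraries. For counted UMIs this allows a level of up to 0.0499 CPM in the library labelled treated and 0.0658 CPM in the library labelled untreated. Whether reads of these genes were lost in counting was not checked, so the missing UMIs do not show that their RNA was absent. DCLK1, the paralog of DCX, had 0 UMIs in the library labelled treated and 1 UMI in the library labelled untreated.

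**Figure D5:**
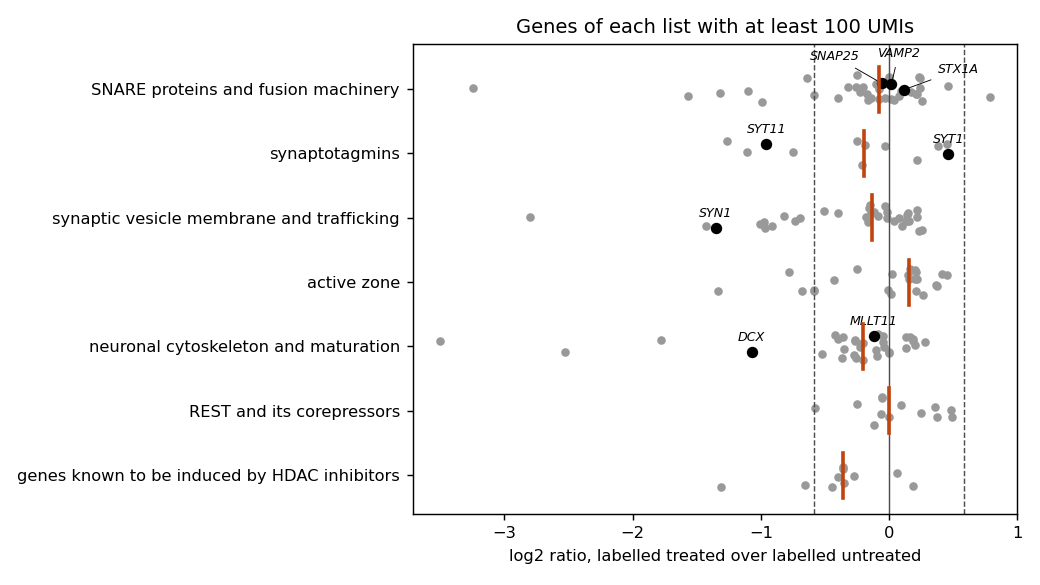
Log2 ratio of the library labelled treated over the library labelled untreated for the genes of each list with at least 100 UMIs over both libraries (grey points, members in black with their names), with the list's median as an orange bar and dashed lines at 1.5-fold. The medians run from -0.36 for genes known to be induced by HDAC inhibitors to 0.15 for the active zone, and SYN1, DCX and SYT11 lie beyond the lower line.

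REST, the repressor of RE1 genes, was at the limit of detection, with 0 UMIs in the library labelled treated and 3 UMIs in the library labelled untreated. Of 13 measured genes of the list of REST and its corepressors, of 14 listed, 0 passed 1.5-fold either way. Of all measured genes 3.17% were higher and 12.2% lower by that fold. The list had a median log2 ratio of 0.00. HDAC1 stood at 53.8 CPM in the library labelled treated and 80.2 CPM in the library labelled untreated, a ratio of 0.671, and HDAC2 had a ratio of 0.842. RCOR2 had a ratio of 1.40, SIN3A 1.40 and KDM1A 0.961. Of the members with a matched promoter, SYN1 was the only one with the RE1 pair at the spacing searched, and its ratio was 0.392.

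Markers of other cell types were read beside the low members. Of 10 markers of brain neurons 5 were measured and 2 of these were lower by 1.5-fold or more in the library labelled treated. The list had summed levels of 69.9 CPM in the library labelled treated and 69.8 CPM in the library labelled untreated, of which BCL11B made up 48.8 CPM labelled treated and 35.7 CPM labelled untreated. BCL11B had a ratio of 1.37 (1.29 to 1.45). Without BCL11B the sums were 21.1 CPM labelled treated and 34.1 CPM labelled untreated. All 8 of the other markers with UMIs had ratios below 1, but only 4 of them were measured. The interval of GRIN1 included 1 (0.524 to 1.04), and NEUROD6 had 1 UMI labelled treated and 3 labelled untreated. The median log2 ratio was -0.01 over all measured genes and -0.12 over those under 10 CPM. GAD2 was at 0 in both libraries. Of 8 glial markers 0 were measured, with summed levels of 1.66 CPM labelled treated and 3.62 CPM labelled untreated and OLIG2 at 0 in both. Keratinocyte markers had summed levels of 359 CPM in the library labelled treated and 403 CPM in the library labelled untreated, of which KRT10 made up 313 CPM labelled treated and 311 CPM labelled untreated. Of the 6 keratinocyte markers 3 were measured, 2 of these were lower by the fold, and TP63 was at 0 in both libraries. Fibroblast markers summed to 18.0 CPM labelled treated and 29.3 CPM labelled untreated, with 2 of 6 measured and both of these lower by the fold, and with COL3A1 at 0 in both. B cell markers summed to 16.0 CPM labelled treated and 21.7 CPM labelled untreated, with 3 of 5 measured, 2 of these lower by the fold, and MS4A1 at 0 in both. T and myeloid cell markers summed to 1.56 CPM labelled treated and 2.90 CPM labelled untreated, with 2 of 7 measured, both lower by the fold, and PTPRC, CD3D and CD2 at 0 in both. Over these 6 lists 0 measured markers were higher by 1.5-fold or more in the library labelled treated. With 3.17% of all measured genes higher by that fold, 0 among so few markers is no finding. Lower by that fold were 12.2% of all measured genes and 23.4% of those under 10 CPM. The part of these markers in the lower SYN1, DCX and SYT11 levels was not tested.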

How the data were processed

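WaGa cells were profiled by 10x Genomics 3′ single-cell RNA sequencing in 2 libraries. Per the submitters' processing notes, Cell Ranger, Seurat and hg19 were used; the sources used here name no filters on cells, annotation or strand setting. The authors deposited natural log values: the natural log of 1 plus counts per 10000 of a cell. Whole UMIs were recovered from these for 100% of values above 0 (tolerance 1e-06). No cell filter was added and doublets were not called. Cells were assigned by the treatment word in their name, with 0 columns left over.

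UMIs were summed per library and divided by the total (CPM). Ratios have 95% Clopper-Pearson intervals and levels Poisson intervals; limits for 0 take 3 UMIs. Genes with at least 100 UMIs and a ratio of 1.5 were counted. The CPM ranges split at 10 and 100 were chosen after values were seen. Phases were called with scanpy on thinned cells. The code was tested on simulated data. The members and lists were chosen with earlier results of these data known. Named genes were the members, up to 2 at each end of each list, fixed partners, REST and HDAC-inhibitor list genes, and the 3 genes most like each member; other names, overlapping genes and markers included, were picked afterwards. Some of the fixed genes are not reported here. Alternatives changed the scaling, cell weights, pseudocount, UMI minimum, cells, thinning and phase scoring, or took differences of mean deposited log values. Python 3.11.15, numpy 2.4.6, scipy 1.17.1, pandas 2.3.3, scanpy 1.11.5 and matplotlib 3.10.9 were used.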

Additional observations from a re-analysis of the deposited data

How the results depend on the processing

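With 1 library per group no library could be left out. No paired analysis was possible because each group had 1 library. The number of members at least 1.5-fold lower, 3, was 0 with a pseudocount of 0.1 per 10000 and 0 in cells called G1, where SYN1, DCX and SYT11 had under 100 UMIs each. With that pseudocount the log2 ratio was -0.57 for SYN1, -0.46 for DCX and -0.25 for SYT11. The number at least 1.5-fold higher was 1, SYT1, in cells called S. The median log2 ratio of the members was -0.19 in G2/M. It was 0.12 in cells called G1, over the 5 members left there, without SYN1 (-1.81), SYT11 (-1.87) and DCX (-1.40). Of all measured genes, 406 were higher and 1567 lower by that fold. The counts were 42 higher and 207 lower with the pseudocount, 1037 lower in cells of 7000 to 12000 UMIs, 231 higher and 619 lower with at least 500 UMIs, and 1604 higher and 4411 lower with at least 1 UMI in each library. Of these settings, the cause was not tested, except that the pseudocount shrinks low genes by construction and the minimums change which genes are counted. For the main counts and medians, 44 alternative values in all stayed within the spread or count limit and 12 did not. Of the alternative values for the other results, those of single members and lists included, 147 stayed and 76 did not. SYN1, DCX and SYT11 had log2 ratios below 0 in every setting run, but their size varied. Those nearest to 0 were differences of mean deposited log values, where 1 per 10000 is added before the log. There SYN1 had -0.07, DCX -0.06 and SYT11 -0.03. Outside the counting interval of the main ratio were 3 alternative values for SYN1, 6 for DCX and 6 for SYT11. Inside it were 10 for SYN1, 7 for DCX and 7 for SYT11. STMN2 had 1 UMI labelled treated and 11 labelled untreated, too few to be measured.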
